A study of Rattus norvegicus with 8 samples.

Results

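Complement genes were followed in the neurohypophysis (neural lobe, the posterior pituitary) of male Sprague Dawley rats aged 35 or 125 days, with 4 RNA-seq libraries at each age. The 9 genes were picked by symbol from 33294 listed genes: C3, C4a, C4b, C1qa, C1qb, C1qc, Cfb, C1s and Cd55. They cover the start of the classical pathway, the central component, the alternative pathway and a membrane regulator. The labels name no transgene and no treatment other than age, with 35 days as the control, and all rats were perfused with PBS under isoflurane before the lobe was frozen. They do not state that each library came from a separate animal. The p-values therefore measure the spread between these libraries, which may in part be technical.

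Complement is a cascade of proteins that tag and lyse targets. In the classical pathway the recognition molecule C1q binds a target and carries the proteases C1r and C1s. C1s cleaves C4 and C2, which together form an enzyme that cleaves C3. In the alternative pathway factor B joins fragments of C3 into another such enzyme, which makes more of them. Cells protect themselves with regulators such as CD55 (decay-accelerating factor), which takes these enzymes apart. The liver makes most plasma complement, while in nervous tissue C1q comes largely from microglia and macrophages, and C3 and C4 can also be made by glia, fibroblasts and endothelial cells.

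At 125 days 4 of the 9 genes were higher than at 35 days (C4a, C4b, C3 and Cfb), Cd55 was lower, and C1qa, C1qb, C1qc and C1s did not pass the test. The test was limma on log2(value + 1), with p-values adjusted over the 17919 genes that passed a filter on low values, and a call needed an adjusted p below 0.05. All 9 genes passed the filter. Over all genes tested 17.7% were called, 8.85% higher and 8.87% lower. The 4 values of each age did not overlap in 4 of the 9 genes, against 24.9% of all genes tested. The median log2 change of the 9 genes was 0.01, as it was over all genes tested (0.01), with C4a at one end of the range and Cd55 at the other. Values are depth-normalized counts, that is, reads per gene divided by 1 factor per library. They are not corrected for gene length, so levels are compared between ages and not between genes.

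**Figure D1:**
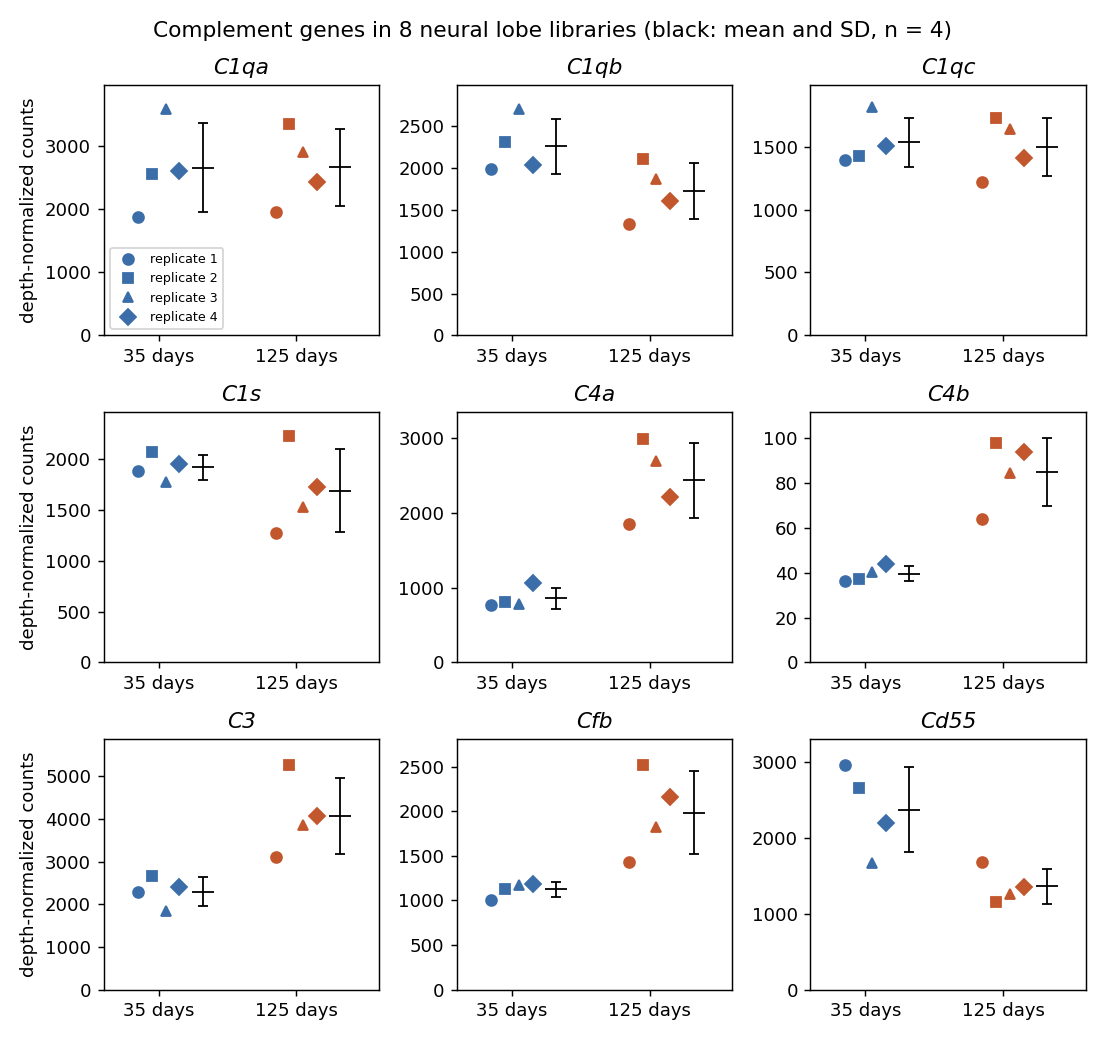
Depth-normalized counts of the 9 complement genes in each library (y axis from 0; x axis, age; marker shape, replicate number; black, mean and SD, n = 4). C4a, C4b, C3 and Cfb do not overlap between ages, and the lowest 125-day value of these 4 genes is in replicate 1.

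C4 is the component that C1s cleaves, and it becomes bound to the target. Rats have 2 gene copies, C4a and C4b, in the major histocompatibility region. Counts for 1 copy may include reads of the other, so the separate values are uncertain. C4a was at 772, 812, 785 and 1068 in 35-day replicates 1 to 4, and at 1850, 2988, 2697 and 2217 in 125-day replicates 1 to 4. Every 125-day library lay above every 35-day library, and 35-day replicate 4 was the highest of its age. The mean went from 859 ± 140 to 2438 ± 505 (SD, n = 4), a 2.81-fold rise (log2 change 1.49, SE 0.16, adjusted p = 2.74e-04), which was the largest change among the 9 genes. C4b was counted at much lower values: 36.5, 37.2, 40.3 and 44.0 at 35 days, and 64.0, 97.7, 84.5 and 93.8 at 125 days. These values rest on 30 to 100 reads per library. They did not overlap between ages either, and the log2 change was 1.07 (SE 0.19, adjusted p = 0.00396).

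The promoters of C4a and C4b are shown because the counts of these near-identical copies moved in the same direction. The copies lie apart on chromosome 20. Because the C4b counts may include reads of C4a, the shared direction may not be independent, which was not tested. Promoter windows, with 250 bases before and 50 after the start site, were found for 6 of the 9 genes in the RefSeq table (build GRCr8, which is not the build of the files, rn7): C3, C4a, C4b, C1qa, C1qb and Cd55. The C4a and C4b windows were identical at 276 of 295 aligned bases (93.6%), while the other pairs of these 6 windows reached 55.7 to 62.9%. The stretches below lie on the plus strand at chr20:4010217-4010296 for C4a, 140 to 61 bases before its start, and chr20:4201834-4201913 for C4b, 145 to 66 bases before its start. Capitals mark an E-box, CACGTG, a sequence that basic helix-loop-helix factors such as USF can bind.
C4a: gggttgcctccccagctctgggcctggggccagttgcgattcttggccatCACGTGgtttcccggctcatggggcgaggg
C4b: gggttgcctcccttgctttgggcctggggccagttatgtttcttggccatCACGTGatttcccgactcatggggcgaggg

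The 2 stretches agree at 72 of 80 positions, the E-box included. CACGTG, which reads the same on both strands, was found in the windows of C4a and C4b and in none of the other 4 windows. It occurs in 6.42% of the 33469 promoter windows of the table. A match describes the letters and does not show that a factor binds there.

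Within a library, C4b stood at 4.73, 4.58, 5.14 and 4.12% of the C4a value at 35 days, and at 3.46, 3.27, 3.13 and 4.23% at 125 days. Replicates 1 to 3 at 125 days lay below all 35-day libraries, and replicate 4 lay inside their range. The mean went from 4.64 ± 0.42% to 3.52 ± 0.49% (SD, n = 4). A two-sided exact permutation test of the log2 ratio, 4 against 4 libraries, gave p = 0.0571 (adjusted p = 0.0857 over 3 ratios). The smallest p it can give is 0.0286. These 3 ratios were chosen after the values were seen.

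C3 is the component on which all pathways converge, and its cleaved form marks targets for uptake. It was at 2284, 2654, 1854 and 2397 in the 35-day libraries, and at 3104, 5266, 3869 and 4078 in the 125-day libraries. The ages did not overlap, with 35-day replicate 3 the lowest of all and 125-day replicate 2 the highest. The mean rose 1.76-fold, from 2297 ± 334 to 4080 ± 895, with a log2 change of 0.81 (SE 0.16, adjusted p = 0.00790). With the level of anterior lobe markers in the model the change of C3 was 0.58 (SE 0.20, adjusted p = 0.0811) and no longer a call. Cfb, encoding factor B of the alternative pathway, was at 1008, 1133, 1176 and 1187 at 35 days, and at 1435, 2524, 1822 and 2163 at 125 days. Its 35-day libraries lay close together and its 125-day libraries spread more widely, without overlap. Cfb rose 1.73-fold, from 1126 ± 82.0 to 1986 ± 466 (log2 change 0.79, SE 0.16, adjusted p = 0.00794).

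The C3 promoter is shown because it is the other rising gene with an entry in the table. The stretch, on the minus strand at chr9:2201404-2201483 (GRCr8), runs from 144 to 65 bases before the start. Capitals mark a match to TTGCNNAA, a form of the site that C/EBP factors bind.
C3: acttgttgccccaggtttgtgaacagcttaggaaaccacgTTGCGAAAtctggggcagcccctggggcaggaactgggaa

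TTGCNNAA, searched on both strands, occurred in 1 of the 6 windows, that of C3, and in 10.6% of all windows. The other motifs searched on both strands were an ETS core, GAGGAA (windows of C1qb and C4b; 27.6% of all), a STAT-type site, TTCNNNGAA (C1qa; 8.87%), and a GC box, GGGCGG (C1qb and Cd55; 33.1%).

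The 3 C1q genes encode the chains A, B and C, which assemble in equal numbers into the C1q molecule, and they lie side by side in the genome. None of the 3 passed the test with limma, edgeR or DESeq2, and 1 (C1qb) had an unadjusted p below 0.05 in limma. C1qa was at 1883, 2554, 3595 and 2614 at 35 days, and at 1956, 3360, 2905 and 2435 at 125 days. Libraries of either age covered almost the same range, and the means were 2662 ± 705 and 2664 ± 604 (SD, n = 4). The log2 change was 0.01 (SE 0.21, 95% interval -0.46 to 0.48, adjusted p = 0.981). C1qc was at 1394, 1422, 1813 and 1504 at 35 days and at 1219, 1725, 1639 and 1408 at 125 days. Its ages also overlapped throughout, with a log2 change of -0.04 (SE 0.13, 95% interval -0.33 to 0.26, adjusted p = 0.875).

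C1qb had the most negative change of the 3 chains. It was at 1992, 2308, 2705 and 2035 at 35 days, and at 1335, 2107, 1866 and 1607 at 125 days. Only 125-day replicate 2 reached into the 35-day range. The means were 2260 ± 328 and 1729 ± 333, and the log2 change of -0.40 (SE 0.15, 95% interval -0.74 to -0.06) had an adjusted p of 0.105. With library weights in the fit C1qb was called lower (log2 change -0.40, adjusted p = 0.0107). That fit called 3919 of all 17919 genes tested lower, against 1589 in the main test.

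The ratio of C1qb to C1qa within a library, chosen after the values were seen, separated the ages, while the values of either gene overlapped. It was 1.06, 0.903, 0.752 and 0.778 at 35 days, and 0.682, 0.627, 0.642 and 0.660 at 125 days. Every 35-day ratio exceeded every 125-day ratio, and the 125-day ratios lay close together (0.653 ± 0.024, against 0.873 ± 0.140, SD, n = 4). The exact permutation test gave p = 0.0286, the smallest possible here, and the adjusted p over the 3 ratios was 0.0857. The ratio of C1qc to C1qa was 0.594 ± 0.102 and 0.570 ± 0.045 (exact permutation p = 0.800, adjusted p = 0.800).

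**Figure D2:**
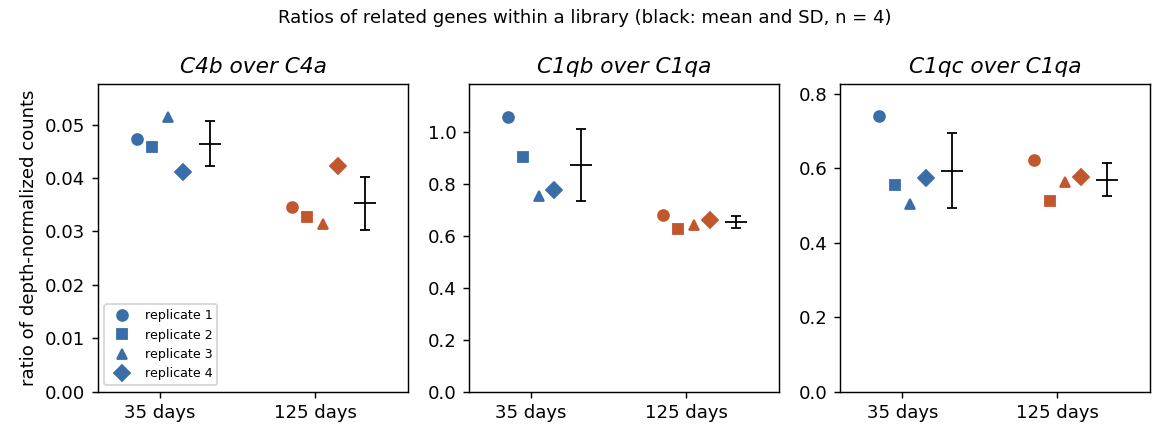
Ratios of depth-normalized counts of C4b to C4a, C1qb to C1qa and C1qc to C1qa within each library (y axes from 0; x axis, age; marker shape, replicate number; black, mean and SD, n = 4). The ages do not overlap for C1qb over C1qa and overlap for the other 2 ratios. The ratios were chosen after the values were seen.

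C1s encodes a protease of the C1 complex. It was at 1887, 2067, 1773 and 1951 at 35 days and at 1278, 2232, 1533 and 1722 at 125 days. The 125-day libraries spread around the narrow 35-day range, both below and above it. The log2 change was -0.21 (SE 0.15, 95% interval -0.55 to 0.13, adjusted p = 0.387). Library weights gave a call (log2 change -0.32, adjusted p = 0.0395), in a fit that called 3919 of all 17919 genes tested lower. C1r, the partner protease encoded by the neighbouring gene, averaged 2869 ± 266 at 35 days and 2803 ± 629 at 125 days, a log2 change of -0.05 with an adjusted p of 0.840.

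Cd55 went the other way from C3 and C4a. It was at 2967, 2660, 1676 and 2197 at 35 days, and at 1690, 1158, 1257 and 1357 at 125 days. The other 35-day libraries lay above all 125-day libraries, while replicate 3 of that age (1676) was just under 125-day replicate 1 (1690). The mean fell from 2375 ± 563 to 1366 ± 231 (log2 change -0.78, SE 0.18, adjusted p = 0.0157). The call was lost without 125-day replicate 3 (log2 change -0.74, adjusted p = 0.0517). Without 35-day replicate 3, the library that stood apart, the change was -0.94 (SE 0.14, adjusted p = 0.00101).

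Other genes of the system were read in the same fit, from a list of 43 of which 42 are in the table and 32 passed the filter. Of these 32, 5 rose and 3 fell, where 8.85% of all genes tested were called higher and 8.87% lower. Their median log2 change was 0.10, against 0.01 over all genes. The counts by role rest on few genes each. By role, 3 of 8 genes grouped under the classical and lectin pathways rose and 1 fell, and 2 of 12 regulators rose and 1 fell. The 3 that rose in the first group include Colec12, a scavenger receptor. Among 4 terminal pathway genes 1 fell. None of 6 receptor genes and neither alternative pathway gene was called by limma, edgeR or DESeq2, and none of them had an unadjusted p below 0.05.

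**Figure D3:**
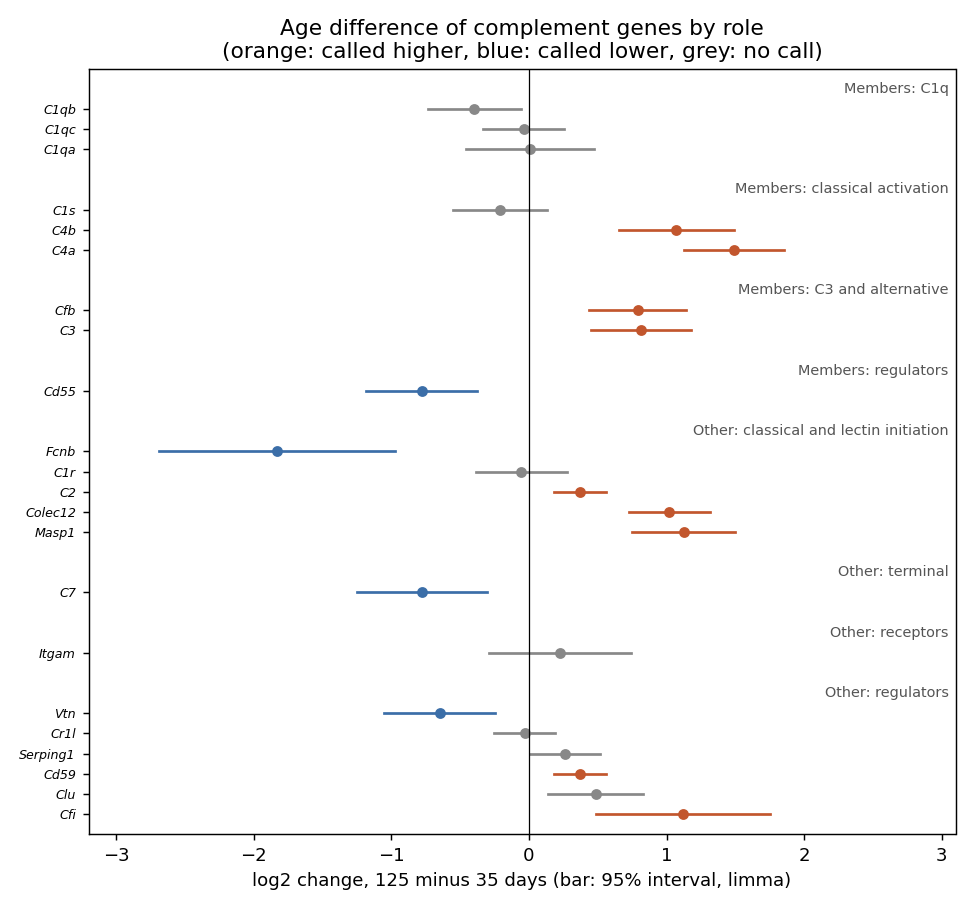
Log2 change from 35 to 125 days (x axis) of the 9 complement genes and of the other complement genes described in the text, grouped by role, with 95% intervals from limma. C4a, C4b, C3 and Cfb lie to the right of 0 and Cd55 to the left, while the intervals of C1qa, C1qc and C1s include 0.

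C2, whose product joins C4 in cleaving C3 and whose gene neighbours Cfb, rose from 1574 ± 71.8 to 2042 ± 138 (log2 change 0.37, SE 0.09, adjusted p = 0.0142). The adjusted p of C2 was 0.0533 with the anterior lobe term and 0.0599 when 125-day replicate 4 was left out. Masp1, a protease of the lectin pathway, was at 117, 127, 120 and 120 at 35 days and at 210, 362, 245 and 264 at 125 days. It rose 2.18-fold without overlap (95% interval of the log2 change 0.75 to 1.50, adjusted p = 0.00169). Colec12, a scavenger receptor with a collectin domain, rose from 1984 ± 300.3 to 4009 ± 447 (log2 change 1.02, SE 0.13, adjusted p = 7.04e-04). Fcnb, a ficolin of myeloid cells, fell from 73.4 ± 5.01 to 22.9 ± 13.4 (log2 change -1.83, SE 0.38, adjusted p = 0.00974). Beside it, the neutrophil and mast cell marker list had 4 of 5 tested genes lower, with a level between 6.85 and 7.67 at 35 days and between 4.46 and 5.39 at 125 days. Levels of marker lists are means of log2(value + 1) per library, and the part of these cells in the Fcnb result was not tested.

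Among regulators, Cfi, the protease that inactivates cleaved C3 and C4 with cofactors, rose from 18.1 ± 6.12 to 39.5 ± 8.11 (log2 change 1.12, SE 0.28, adjusted p = 0.0225). Cd59, which blocks the terminal pore, rose from 3930 ± 313 to 5064 ± 150 (log2 change 0.37, SE 0.08, adjusted p = 0.0151). Its direction was thus opposite to that of Cd55, although both encode membrane-anchored regulators. Vtn, encoding vitronectin, which binds terminal complexes, fell from 789 ± 99.3 to 514 ± 140 with overlapping ages (log2 change -0.65, SE 0.18, adjusted p = 0.0341). C7, a component of the terminal pore, was at 9124, 10318, 6881 and 11504 at 35 days and at 4326, 8155, 5074 and 4826 at 125 days. Its ages overlapped through 35-day replicate 3 and 125-day replicate 2, and the log2 change was -0.78 (SE 0.21, adjusted p = 0.0314).

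These calls were less stable than those of C4a, C4b and Cfb. Leaving out 1 library ended the Cfi call for 35-day replicates 1 or 2 and 125-day replicates 1 or 3 (adjusted p 0.0556 to 0.0734). The Cd59 call ended without 35-day replicate 2 or 125-day replicates 1, 3 or 4 (0.0506 to 0.0538). The Vtn call ended when any of 5 libraries was left out, namely replicates 2 and 4 at 35 days and 1, 3 and 4 at 125 days (0.0686 to 0.103). The C7 call held only without 35-day replicate 3 or 125-day replicate 2 and ended without any other library (0.0676 to 0.0970). A fit with no intensity trend ended the C7 (0.0534) and Vtn (0.0533) calls. With the anterior lobe covariate the Cd59 (0.117) and Vtn (0.0824) calls ended too, and with the replicate block the Cfi call did (0.0508).

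Of the genes with no call, Clu, encoding clusterin, an inhibitor of pore assembly, was at 80604 ± 4396 and 113397 ± 15422. Its ages did not overlap, and its log2 change of 0.48 (SE 0.16) had an adjusted p of 0.0580. Cr1l, encoding the rodent regulator Crry, was at 2852 ± 327 and 2784 ± 142 (log2 change -0.03, SE 0.10). Serping1, encoding the C1 inhibitor, averaged 1931 ± 76.4 and 2338 ± 380, and its log2 change of 0.26 had an adjusted p of 0.147. Itgam, a subunit of complement receptor 3 on myeloid cells, was at 584 ± 172 and 670.5 ± 147 (log2 change 0.22, SE 0.23).

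The 10 genes below the filter included several components known from liver. Mbl1 and C8a had no read in any library, and Mbl2, C8b and Colec10 had 1 or 2 reads in 1 library each. The hepatocyte list of 7 genes had a level of 1.84 to 2.10 at 35 days and 1.85 to 2.38 at 125 days, and 2 of the 7 passed the filter, with no call. Alb, encoding albumin, did not exceed 2.4 in any library, while Apoa1 lay between 6.84 and 29.4. Ttr, encoding transthyretin, was at 904 in 125-day replicate 4 and at most 31.5 in the others. The part of such RNA in the complement values was not tested. Cr2, a receptor of B cells, was at 17.7 ± 7.54 and 4.14 ± 3.54 and was not tested.

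The cell type markers place these values in the tissue. Avp, Oxt and Pdyn of the axon terminals and Gfap, S100b and Scn7a of pituicytes were read in every library. So were Pomc and Pax7 of the intermediate lobe and Gh1 of the anterior lobe. Pomc averaged 2.54e+06 at 35 days and 4.56e+06 at 125 days, and Gh1 reached 975243 in 35-day replicate 3. The libraries thus also hold RNA of the adjoining lobes, and the part of intermediate lobe RNA in the complement values was not tested. The anterior lobe list ran from 8.82 to 14.1 at 35 days, highest in replicate 3, and from 7.06 to 9.44 at 125 days, lowest in replicate 2. The fibroblast list was at 12.2 to 12.4 and 10.9 to 11.6 (8 of 10 genes lower), the endothelial list at 11.0 to 11.4 and 10.2 to 11.1 (6 of 8 lower) and the pituicyte list at 12.3 to 12.6 and 11.6 to 12.1 (4 of 10 lower). The axon terminal list was at 10.7 to 11.2 and 11.6 to 12.2, without overlap (2 of 3 genes higher), and the intermediate lobe list at 14.9 to 15.3 and 15.3 to 15.8 (1 of 5 higher). Among the remaining lists the anterior lobe had 3 of 8 genes lower. The T and B cell list had 2 higher (Cd4 and Cd8a) and 2 lower (Cd79a and Cd79b) of 5 tested, and Cd3e was not called. Beside the rises of C3, C4a, C4b and Cfb, the axon terminal and intermediate lobe lists were thus higher on average, by 0.98 and 0.38, and the fibroblast, endothelial and pituicyte lists lower. Genes within a list differed: the log2 change was 2.35 for Pdyn, 0.82 for Oxt and -0.24 for Avp. In the intermediate lobe list it was 0.87 for Pomc, 0.79 for Pcsk2, 0.26 for Tbx19, -0.01 for Pax7 and -0.03 for Drd2. The part of these cell types in the rises of the complement genes was not tested. In bulk tissue, fewer cells of a type and less RNA per cell cannot be told apart.

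The microglia and macrophage list spanned 9.09 to 9.30 in the younger libraries and 8.73 to 9.20 in the older ones. Among its 19 tested genes, 1 was higher, Cd68 (log2 change 0.90). The 5 lower genes were Siglec5 (-1.27), Tmem119 (-1.13), P2ry12 (-1.01), Aif1 (-0.74) and Lyve1 (-0.70). Ctss (-0.28) and Csf1r (-0.05), the list's genes with the highest values, were not called. The C1q genes, expressed largely in these cells, had changes of 0.01 (C1qa), -0.04 (C1qc) and -0.40 (C1qb), none of them called. The part of these cells in the C1q values was not tested.

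Libraries of 1 age differed in a way that many of the genes shared. At 125 days, 8 of the 9 genes were highest in replicate 2 and lowest in replicate 1, and the exception was Cd55, which was lowest in replicate 2 and highest in replicate 1. Of the 10 marker lists, 6 were also highest in replicate 2 and 7 lowest in replicate 1, among them the macrophage, fibroblast, pituicyte and endothelial lists. The other 3, the intermediate lobe, anterior lobe and hepatocyte lists, were lowest in replicate 2. The intermediate lobe list was highest in replicate 1 (15.8, against 15.3 in replicate 2). At 35 days the genes divided: C1qa, C1qb and C1qc were highest in replicate 3, where C3, C1s and Cd55 were lowest, and C4a, C4b and Cfb were highest in replicate 4. The other 6 genes (C4a, C4b, C1qa, C1qb, C1qc and Cfb) were lowest in replicate 1 of that age, where Cd55 was highest. The part of cell composition in these differences between libraries was not tested. Leaving out 125-day replicate 1 or 2 gave log2 changes of 0.94 and 0.68 for C3, 0.94 and 0.66 for Cfb and 1.62 and 1.39 for C4a, all called.

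**Figure D4:**
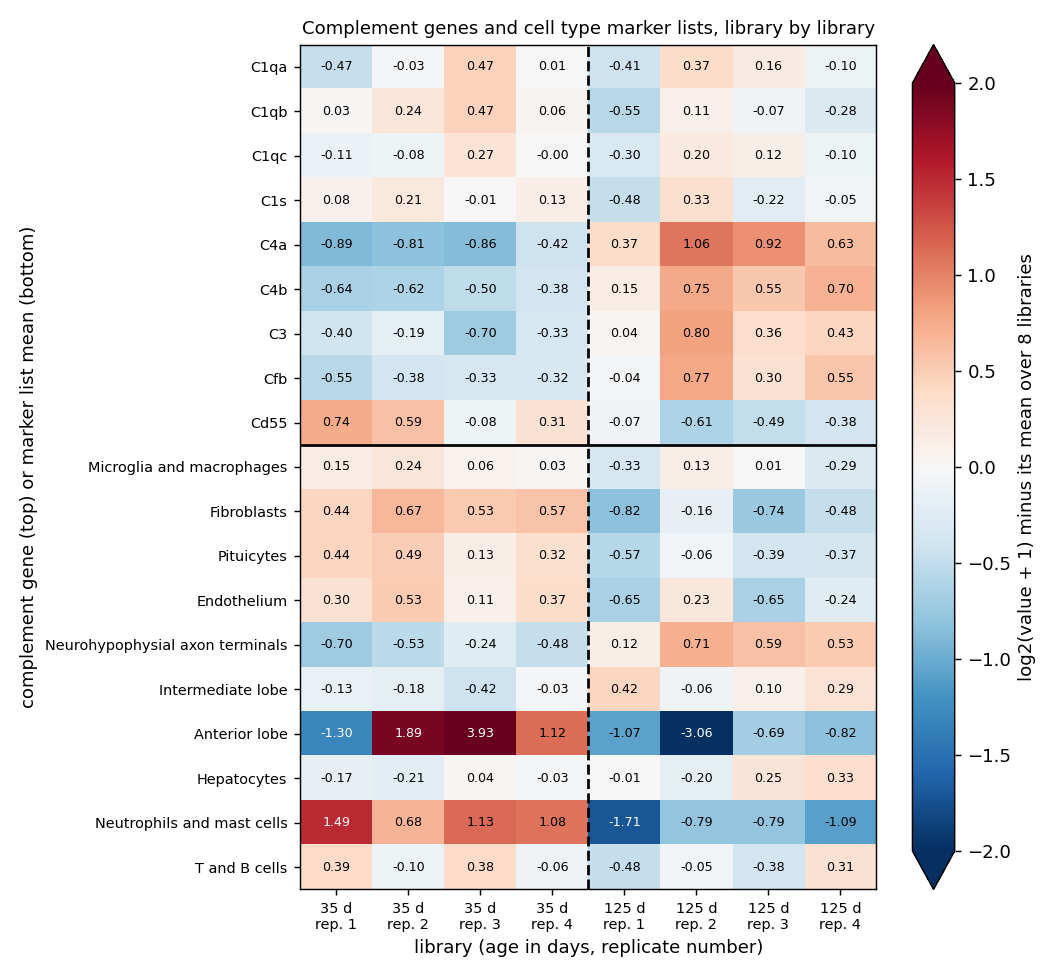
Log2(value + 1) of each complement gene (top) and mean of each marker list (bottom), minus its mean over the 8 libraries (columns; colours saturate at 2 in either direction, and each cell prints its value). C4a, C4b, C3 and Cfb are below their mean in every 35-day library and above it in every 125-day library except for Cfb in replicate 1 (-0.04), and Cd55 is lowest in 125-day replicate 2.

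The profiles over the 8 libraries were compared as the mean absolute difference between genes of log2(value + 1), each minus its own mean. Among the 9 genes the closest pairs were C1qa with C1qc (0.12), C3 with Cfb (0.13) and C4b with Cfb (0.15). C4a and C4b were at 0.23. Among 12803 other genes with a mean of at least 100, those nearest to C3 were Ppfibp2 (0.089), Tbkbp1 (0.11) and Klhdc7a (0.12). For C4a they were Ism2 (0.13), Slc9a5 (0.15) and Nxnl1 (0.17), and for C1qb Tent5c (0.051), Pik3r6 (0.058) and Tnfaip8l2 (0.059). Sncaip (0.091), Shc4 (0.096) and Tph2 (0.0997) were nearest to Cd55. Because these genes were chosen by profile over both ages, a similar age change follows from the choice. Ism2 was at 270 and 812 at 35 and 125 days, with a log2 change of 1.56 (SE 0.15). Tph2, the tryptophan hydroxylase of serotonin neurons, was at 3540 and 1804 (log2 change -0.97, SE 0.14).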

How the data were processed

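The neural lobe was profiled by poly(A) RNA-seq in 4 libraries of 35-day and 4 of 125-day male rats, grouped by sample title. The authors deposited 1 table of depth-normalized signal, per-gene read counts scaled by 1 size factor for each library. The values show this: 100% were whole multiples of the smallest value in their library (tolerance 0.001 reads). Recovered reads ran from 28429133 to 58696254 per library. The authors' mean columns equal the library means and were not used. Per the submitters' processing notes, Trimmomatic 0.39, HISAT2 2.2.1, SAMtools 1.13, featureCounts of Subread 2.0.1, DESeq2 1.34.0 and build rn7 were involved. The annotation is not given in the sources used here, nor is the strand setting, so reads of overlapping or antisense genes cannot be told apart.

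The main test was limma 3.58.1 (R 4.3.3) run on log2(value + 1) with a mean-variance trend and age as the sole term. It covered genes that reached 10 in 4 or more libraries, with Benjamini-Hochberg adjustment over all of them, two-sided, called below 0.05. Changes of genes with low values come out too small on that scale. Alternatives were pseudocounts of 0.5 and 5, 2 other filters, 3 scalings, library weights, no trend, the count tests of DESeq2 1.42.0 and edgeR 4.0.16 on recovered reads, a block for the replicate number, an anterior lobe covariate (mean level of 8 marker genes) and leaving out each library. On the recovered reads edgeR called 3170 genes and DESeq2 4196, against 3174 in the main test. The test was checked on simulated data. The genes nearest in profile were sought for C3, C4a, C1qb and Cd55 among tested genes with a mean of at least 100 and a named symbol. Ratios used exact permutation tests (scipy 1.17.1, 70 arrangements), and promoter windows were aligned with Biopython 1.88. Figures were drawn with matplotlib 3.10.9.

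The genes, lists, marker lists and motifs were chosen with earlier results of these data known. All 9 genes are named, as are all called genes of the wider complement list and the uncalled ones with the highest mean (6 by the rule), others being added to complete counts. Some genes that the rule names are not reported here. Cd59b of that list and Fcrls of the macrophage markers were not matched by symbol. All 9 genes matched the RefSeq gene table by symbol. Same-age libraries differed by 16.8 to 298 times the variance of read sampling, so none was a copy of another. On the principal components 35-day replicate 3 stood apart (second component -59.7, against 21.8 to 29.3 for the other 35-day libraries).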

Additional observations from a re-analysis of the deposited data

Results flagged for a closer look

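In 46 groups of 4 libraries (23 genes at 2 ages), 2 held a library far from the other 3 by Dixon's criterion, and chance alone flags about 1 in 20 groups. C4a was at 1068 in 35-day replicate 4, against 772 to 812 in the other 35-day libraries, and still below every 125-day library. Cd59 was at 4397 in 35-day replicate 1, against 3730 to 3804 in the others.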

How the results depend on the processing

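C4a, C4b and Cfb were called higher in all 21 alternatives (log2 changes 1.39 to 1.62, 0.999 to 1.20 and 0.66 to 0.94), C3 in 20 and Cd55, lower, in 20. The 4 rises and 1 fall were also called by edgeR, by DESeq2 and under each scaling. With library weights the 9 genes had 3 called lower (Cd55, C1qb and C1s), where 3919 of all 17919 genes tested were called lower. Without 1 library each, 0 to 1 of the 9 genes were called lower. Among other complement genes 5 were called higher. This count was 9 with library weights, 3 with the anterior lobe covariate and 3 to 9 without 1 library each (9 without 35-day replicate 3; 3 without 35-day replicate 2 or 125-day replicates 1, 3 or 4). The 3 called lower became 1 without the trend, 7 with library weights and 1 to 4 without 1 library each. Over all genes the 3174 calls became 7892 with library weights and 1894 to 5495 without 1 library each, the most without 35-day replicate 3, the fewest without 125-day replicate 4. The causes were not tested. With equal library totals 37.0% of calls over all genes were higher, against 49.9% in the main test. The replicate block left 4 members higher and 1 lower, with 2718 calls over all genes. Same-numbered libraries of the 2 ages had correlations of -0.12 to 0.17 in their deviations from the mean of their age. With 4 libraries per age this cannot show whether the numbers mark a pairing, and the labels do not say. Clu was called higher in 6 of 21 alternatives. Without 1 library each, the log2 ratio of C1qb over C1qa differed by -0.47 to -0.31 and that of C4b over C4a by -0.49 to -0.35, an alternative chosen after seeing the data. C4b, Cfi and Fcnb rest on few reads, which limits their precision. The C4b counts may also include reads of C4a, so its rise may not be separate from that of C4a. The alternatives did not test this.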
